A study of Mus musculus with 6 samples.

Results

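The genes described here are 36 genes of the cell cycle and of DNA replication, out of 55267 gene symbols or IDs in a table of transcripts from mouse intestine. They were chosen by gene name, and all 36 were found in the table and were abundant enough to be tested. In the cold water group (3 libraries) mice received 1 ml of water at 0 to 4 °C by gastric gavage once a day at 8 am for 14 days. In the control group (3 libraries) mice received 1 ml of water at 20 to 25 °C once a day at 9 am for 14 days, so the hour of gavage differed along with the temperature and hour and temperature cannot be told apart. All mice were housed at 22 °C. No genetic change is named, and the sources used here do not give strain, age or sex. The labels leave it unsaid whether the 3 libraries of a group are 3 animals, so p-values measure the spread between these libraries, which may be technical.

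The sample labels name proximal jejunum and the design text names colon. Summed over 12 markers of small intestinal absorptive cells, the level was 33197, 45803 and 51908 FPKM in the cold water libraries, against 40185, 30913 and 42949 FPKM in the control libraries (FPKM, fragments per kilobase of transcript, scaled to library size). Summed over 8 colon markers it was 27.5 to 34.7 FPKM in cold water and 34.1 to 41.0 FPKM in controls, with Hoxd12 listed at 0 in all 6 libraries. Library totals were 72690433 to 78668871 estimated counts, which stand for about 19306888 to 20894786 fragments. Cold water 1 stood apart. Immunoglobulin genes took 1.15% of its counts, against 0.352 and 0.387% in cold water 2 and 3 and 0.248 to 0.337% in the controls, and counts, medians and the differences of the genes given in full are shown with and without it.

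Intestinal epithelium is renewed from dividing cells in the crypts, and lymphoid tissue of the gut wall holds a further dividing population, the B cells of germinal centres. In G1, the origin recognition complex, Cdc6 and Cdt1 load the Mcm2 to Mcm7 ring onto origins of replication. Cdc45 and the GINS complex then turn the ring into an active helicase, while the clamp Pcna tethers polymerases and ribonucleotide reductase and thymidylate synthase supply nucleotides. Cyclin E with Cdk2 drives entry into S phase, cyclin A2 acts in S and G2, and cyclin B with Cdk1 drives mitosis. Aurora and Polo-like kinases build the spindle, Bub1 and Bub1b hold the checkpoint, and Cdc20 and Ube2c serve the anaphase-promoting complex, which ends mitosis. Genes of the replication stage are classically controlled through E2F sites, and genes of mitosis through CCAAT boxes and the cell cycle genes homology region, bound by NF-Y and by the DREAM and MuvB complexes.

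Promoters of 6 of the genes are shown as examples of these elements. A link between the elements and the levels below was not tested, and neither was the difference between replication and mitosis genes. Mcm6 and Mcm5 stand for licensing, Cdk1 for the cyclins and their kinases, Top2a for the chromosome genes, and Ube2c and Birc5 for mitotic exit and the chromosomal passenger complex. Each stretch holds 160 bases upstream of both the RefSeq and the deposited start of the gene and is read 5′ to 3′ on the gene's strand, from RefSeq. Capitals mark exact matches on either strand to 3 elements. The first is the CCAAT box. The homology region was searched as TTTGAA and, in its other common form, as TTCGAA. The E2F site was searched in the forms TTTCCCGC, TTTGGCGC and TTTCGCGC.
Mcm6 (GRCm38.p6, chr1:128359706-128359865, minus strand): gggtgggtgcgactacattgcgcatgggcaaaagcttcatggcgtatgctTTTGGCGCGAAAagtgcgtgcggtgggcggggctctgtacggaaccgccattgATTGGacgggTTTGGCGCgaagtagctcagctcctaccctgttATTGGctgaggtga
Mcm5 (GRCm38.p6, chr8:75109349-75109508, plus strand): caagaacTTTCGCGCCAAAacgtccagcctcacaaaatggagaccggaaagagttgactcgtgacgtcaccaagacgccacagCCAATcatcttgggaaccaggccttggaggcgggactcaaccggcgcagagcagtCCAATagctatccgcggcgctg
Cdk1 (GRCm38.p6, chr10:69352939-69353098, minus strand): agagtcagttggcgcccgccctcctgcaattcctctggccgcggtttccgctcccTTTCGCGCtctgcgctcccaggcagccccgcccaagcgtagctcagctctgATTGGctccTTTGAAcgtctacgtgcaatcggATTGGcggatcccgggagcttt
Top2a (GRCm38.p6, chr11:99024190-99024349, minus strand): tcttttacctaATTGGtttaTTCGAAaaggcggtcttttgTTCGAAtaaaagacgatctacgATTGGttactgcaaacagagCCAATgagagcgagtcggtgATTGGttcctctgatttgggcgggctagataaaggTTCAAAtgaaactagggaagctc
Ube2c (GRCm38.p6, chr2:164769738-164769897, plus strand): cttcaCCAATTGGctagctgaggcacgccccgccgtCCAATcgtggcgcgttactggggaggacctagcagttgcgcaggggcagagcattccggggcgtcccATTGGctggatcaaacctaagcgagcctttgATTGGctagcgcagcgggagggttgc
Birc5 (GRCm38.p6, chr11:117849077-117849236, plus strand): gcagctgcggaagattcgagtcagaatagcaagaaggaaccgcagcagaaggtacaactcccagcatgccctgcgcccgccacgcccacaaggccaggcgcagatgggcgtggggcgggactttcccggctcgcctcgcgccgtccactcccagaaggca
E2F matches overlap each other in Mcm6 and Mcm5, and in the Ube2c stretch CCAAT boxes of opposite strands share bases. The Birc5 stretch holds no match, which says only that these letters are not in it.

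In windows of 250 bases before to 50 bases after each start, RefSeq promoters were found for 28 of the 36 genes. A CCAAT match was present in 23 of the 28 (82.1%), against 37.4% of all 32851 promoters. A homology region match was present in 15 (53.6%), against 19.2% of all promoters, and an E2F match in 8 (28.6%), against 1.84% of all promoters. Among 12 genes of licensing, helicase, clamp and nucleotide supply, 9 held CCAAT, 3 the homology region and 6 an E2F match. Among 11 genes of the mitotic kinases, checkpoint, exit, spindle and chromosomes, 10 held CCAAT, 10 the homology region and 0 an E2F match. A match is a description of letters and not a site shown to be bound.

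No gene of the 36 differed between cold water and control by the quasi-likelihood test of edgeR, adjusted by Benjamini-Hochberg over 12940 tested genes. Of all these genes 5 (0.0386%) were called, 2 higher (0.0155%) and 3 lower (0.0232%). DESeq2 called 71 of all genes (0.549%) and limma 3 (0.0232%), and neither called any of the 36. At an unadjusted p under 0.05 edgeR gave 0 of the 36, against 5.01% of all genes. The edgeR adjusted p of the 36 ran from 0.878 to 0.999. On the side of direction, 28 of the 36 were higher in cold water, against 54.2% of all genes, and the median log2 difference (cold water minus control) was 0.18, against 0.03 for all genes. The libraries of both groups overlapped for all 36 in CPM (counts scaled to the normalised library total), whereas 5.29% of all genes were higher and 5.22% lower without overlap.

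**Figure D1:**
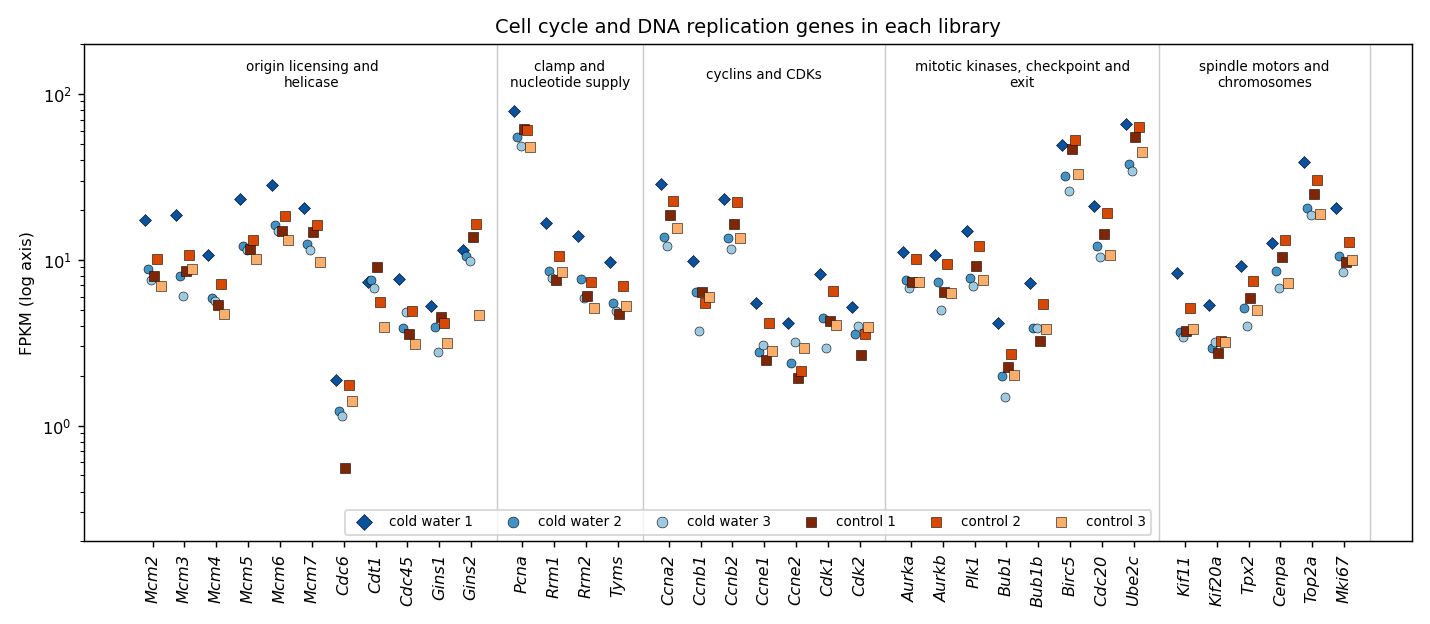
Level of each of the 36 genes in FPKM (log axis) in every library, grouped by role. Blue symbols are cold water and orange to brown squares are control, 3 libraries each. Cold water 1, the diamond, is the highest point for 32 genes. The other 5 libraries spread widely for some genes, such as Gins2, Cdc6 and Cdt1.

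Cold water 1 held the highest level of most of the genes. By CPM it was the highest of the 6 libraries for 31 of the 36 genes (86.1%), against 23.7% of all genes. The 5 exceptions were Cdt1, highest in control 1, Gins2, Birc5 and Cenpa, highest in control 2, and Cdk2, highest in control 3. Over all genes the highest library was cold water 2 or 3 for 7.87 and 21.2% and control 1, 2 or 3 for 19.3, 14.8 and 13.1%. Cold water 1 lay above the median of the other 5 libraries by a factor of 1.09 to 2.28 in FPKM, with a median of 1.82 over the genes, against 1.12 over all genes. Summed over the 36 genes, the level was 634, 376 and 329 FPKM in cold water 1, 2 and 3, against 429, 507 and 348 FPKM in control 1, 2 and 3. Cold water 2 and 3 thus lay within or below the range of the controls. In bulk tissue, fewer cells of a type and less RNA per cell cannot be told apart.

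Pcna was the most abundant of the genes, at a mean of 58.6 ± 11.3 FPKM (SD, n = 6), followed by the ubiquitin-conjugating enzyme Ube2c at 50.0 ± 13.2 FPKM and the survivin gene Birc5 at 39.8 ± 10.9 FPKM. These neighbours in the order lay within each other's spread over the 6 libraries. Within libraries, Ube2c was higher than Birc5 in all 6, and Pcna was higher than Ube2c in all but control 2. Top2a (25.4 ± 7.98 FPKM) and Ccna2 (18.5 ± 6.12 FPKM) came next, and Top2a was the higher of this pair in all 6 libraries. The lowest were the cyclin E2 gene Ccne2 (2.79 ± 0.812 FPKM), Bub1 (2.44 ± 0.922 FPKM) and the loading factor Cdc6 (1.32 ± 0.473 FPKM). Per library, the genes were covered by about 51 to 4739 fragments each.

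Among the 11 genes of origin licensing and the helicase, 10 were higher in cold water and 0 were called, with a median log2 difference of 0.37. Mcm2 (ENSMUSG00000002870, chromosome 6, 88883474 to 88898780), a subunit of the helicase ring, had 17.3, 8.85 and 7.56 FPKM in cold water and 8.00, 10.2 and 6.98 FPKM in controls. Cold water 1 was high, and cold water 2 and 3 lay inside the range of the controls. The log2 difference was 0.43 with a standard error of 0.27 (edgeR adjusted p = 0.878). Mcm5 (chromosome 8, 75109569 to 75128439) had 23.3, 12.0 and 11.5 FPKM in cold water and 11.6, 13.2 and 10.1 FPKM in controls, a log2 difference of 0.43 ± 0.26 (standard error). Mcm6 (chromosome 1, 128331590 to 128359664) had 28.2, 16.2 and 14.9 FPKM in cold water and 14.8, 18.4 and 13.1 FPKM in controls, a log2 difference of 0.41 ± 0.22 (standard error). The pattern of Mcm2 was repeated in these ring subunits, with 1 high library and 2 inside the control range. Both had an edgeR adjusted p of 0.878.

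The other ring subunits Mcm3, Mcm4 and Mcm7 had log2 differences of 0.41, 0.37 and 0.21. The loading factors Cdc6 and Cdt1 had 0.25 and 0.16, and Cdt1, which geminin holds in check after S phase begins, had 7.32, 7.57 and 6.71 FPKM in cold water and 9.06, 5.53 and 3.94 FPKM in controls. The cold water libraries were tight and the controls widely spread around them. Cdc45 had 0.38, and the GINS subunits Gins1 and Gins2 had 0.04 and -0.07. Gins2, the sole member of the role group that was lower in cold water, ranged from 9.83 to 11.5 FPKM in cold water and from 4.64 to 16.5 FPKM in controls. Several of these genes share their locus with another gene, and no source used here says if reads were assigned by strand. Mcm7 holds 32.8% of the counts of its locus, which also contains Ap4m1 and Cops6, Cdc45 30.1% beside Ufd1, and Gins2 57.8% beside Gse1, so their values are uncertain.

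The 4 genes of the clamp and of nucleotide supply were all higher in cold water and 0 were called, with a median log2 difference of 0.27. Rrm2 (chromosome 12, 24708241 to 24714146), the small subunit of ribonucleotide reductase whose protein is made in S phase, had 13.8, 7.61 and 5.85 FPKM in cold water and 6.07, 7.38 and 5.13 FPKM in controls. Cold water 1 and 2 lay above all controls and cold water 3 among them, and the log2 difference was 0.54 ± 0.27 (standard error, edgeR adjusted p = 0.878). Rrm1 (chromosome 7, 102441695 to 102469771), the large subunit, had 16.6, 8.60 and 7.79 FPKM in cold water and 7.59, 10.5 and 8.41 FPKM in controls, a log2 difference of 0.30. The thymidylate synthase gene Tyms (chromosome 5, 30058202 to 30073617) had 9.69, 5.46 and 4.88 FPKM in cold water and 4.72, 6.94 and 5.26 FPKM in controls, a log2 difference of 0.24. In both, cold water 1 alone lay above the controls. Pcna (chromosome 2, 132249162 to 132253314) had 78.6, 54.8 and 48.7 FPKM in cold water and 61.2, 60.5 and 47.7 FPKM in controls, and its log2 difference was 0.11 ± 0.16 (standard error, edgeR adjusted p = 0.950). Cold water 1 was the highest library and the other 5 overlapped.

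Of the 7 cyclin and cyclin-dependent kinase genes, 4 were higher in cold water and 0 were called, with a median log2 difference of 0.16. Ccne2 (chromosome 4, 11191351 to 11204779), which encodes cyclin E2, had 4.13, 2.37 and 3.19 FPKM in cold water and 1.95, 2.15 and 2.96 FPKM in controls. The groups overlapped by cold water 2, and the log2 difference of 0.59 ± 0.32 (standard error, edgeR adjusted p = 0.878) was the highest of the 36. Ccne2 holds 32.6% of the counts of its locus, which it shares with Ints8, so its value is uncertain. Cdk2 (chromosome 10, 128697939 to 128705031), the partner of cyclin E, had 5.16, 3.57 and 3.98 FPKM in cold water and 2.66, 3.57 and 3.96 FPKM in controls, a log2 difference of 0.34. It holds 83.2% of the counts of a locus shared with Pmel. Ccne1 (chromosome 7, 38097984 to 38107534), the cyclin E1 gene, had 5.45, 2.79 and 3.07 FPKM in cold water and 2.5, 4.18 and 2.82 FPKM in controls, a log2 difference of 0.24. The groups overlapped for both.

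Of the cyclins of G2 and mitosis, Ccnb1 (chromosome 13, 100778650 to 100786570) had 9.88, 6.40 and 3.69 FPKM in cold water and 6.36, 5.47 and 5.98 FPKM in controls. In FPKM the cold water libraries lay on both sides of the tightly grouped controls. In CPM the controls were wider apart, at 11.44, 11.43 and 15.96, and cold water 2 (12.24) lay among them. Cold water 1 (22.38) lay above them and cold water 3 (8.88) below. The log2 difference of Ccnb1, fitted on the counts, was 0.16 ± 0.36 (standard error, edgeR adjusted p = 0.977). Cdk1 (chromosome 10, 69335146 to 69352938) had 8.22, 4.46 and 2.93 FPKM in cold water and 4.26, 6.47 and 4.03 FPKM in controls, with means of 5.21 FPKM in cold water and 4.92 FPKM in controls. For Cdk1, cold water 1 lay above all controls, cold water 3 below them and cold water 2 among them, with an edgeR adjusted p of 0.999. Ccna2, which encodes cyclin A2, and Ccnb2 had log2 differences of -0.06 and -0.11. Ccna2 holds 67.3% of the counts of its locus, which it shares with Exosc9.

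Of the 8 genes of mitotic kinases, checkpoint and exit, 6 were higher in cold water and 0 were called, with a median log2 difference of 0.07. Birc5 (chromosome 11, 117849251 to 117855743), which encodes survivin of the chromosomal passenger complex, had 49.0, 32 and 25.9 FPKM in cold water and 46.8, 52.4 and 32.9 FPKM in controls. Cold water 2 and 3 lay below all controls and cold water 1 among them, and the log2 difference was -0.29 ± 0.20 (standard error, edgeR adjusted p = 0.884). Ube2c (chromosome 2, 164769898 to 164778822), the ubiquitin-conjugating enzyme of the anaphase-promoting complex, had 65.6, 37.9 and 34.1 FPKM in cold water and 54.9, 63.1 and 44.7 FPKM in controls. Cold water 1 was the highest library and cold water 2 and 3 the lowest, and the log2 difference was -0.24 ± 0.21 (standard error, edgeR adjusted p = 0.908). The checkpoint kinase gene Bub1b (chromosome 2, 118598211 to 118641591) had 7.28, 3.90 and 3.88 FPKM in cold water and 3.23, 5.39 and 3.84 FPKM in controls, a log2 difference of 0.25. Here cold water 1 alone stood out. The kinase genes Aurka, Aurkb, Plk1 and Bub1 had log2 differences of 0.09, 0.11, 0.05 and 0.10, and the activator gene Cdc20, which holds 26.2% of the counts of a locus shared with Elovl1, had 0.00. Plk1 holds 70.8% of the counts of a locus shared with Gm44985.

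Of the 6 genes of spindle motors and chromosomes, 4 were higher in cold water and 0 were called, with a median log2 difference of 0.19. Mki67 (chromosome 7, 135689784 to 135716361), whose Ki-67 protein coats mitotic chromosomes and is the usual stain for dividing cells, had 20.6, 10.5 and 8.38 FPKM in cold water and 9.66, 12.8 and 9.95 FPKM in controls. Cold water 1 was the highest library, cold water 3 the lowest and cold water 2 lay among the controls, and the log2 difference was 0.27 ± 0.28 (standard error, edgeR adjusted p = 0.930). The kinesin gene Kif20a (chromosome 18, 34624613 to 34633277), needed for cytokinesis, had 5.36, 2.95 and 3.18 FPKM in cold water and 2.74, 3.24 and 3.20 FPKM in controls, a log2 difference of 0.24. It holds 40.3% of the counts of a locus shared with Cdc23. The gene of the centromeric histone, Cenpa (chromosome 5, 30666777 to 30674830), had 12.6, 8.59 and 6.77 FPKM in cold water and 10.3, 13.1 and 7.29 FPKM in controls, a log2 difference of -0.22. The spindle motor gene Kif11, the spindle assembly factor gene Tpx2 and the DNA topoisomerase gene Top2a had log2 differences of 0.26, -0.02 and 0.15. The groups overlapped for all 6.

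Without cold water 1, 26 of the 36 genes were lower in cold water and 10 were higher, against 49.9% of all genes higher, and the median log2 difference was -0.07. The count of higher genes was 28 with that library. For 18 genes the sign differed between both fits. By edgeR adjusted p, 0 of the 36 were called without cold water 1, against 0.00773% of all genes, and the smallest adjusted p was 0.902. By unadjusted p under 0.05, 3 of the 36 were lower, against 1.97% of all genes, and 0 higher, against 3.03%. These were Ube2c, with a log2 difference of -0.50 ± 0.14 (standard error), Birc5 with -0.49 ± 0.17 and Ccna2 with -0.44 ± 0.15, each at an edgeR adjusted p of 0.902. Among the licensing genes given in full, Mcm2, Mcm5 and Mcm6 had log2 differences of 0.08, 0.07 and 0.15 without cold water 1, and among the nucleotide genes Rrm2, Rrm1 and Tyms had 0.21, -0.04 and -0.06. Pcna had -0.04, Ccne1 -0.02, Ccnb1 -0.29 and Cdk1 -0.36. Bub1b had -0.02, Mki67 -0.12, Kif20a -0.06 and Cenpa -0.39. Mcm2, Mcm5, Mcm6 and Rrm2 thus kept a positive difference, though a smaller one, with standard errors of 0.16, 0.14, 0.15 and 0.19. For Mcm2, Mcm5 and Mcm6 the difference did not exceed its standard error. The others of these genes had a negative difference, which for some, such as Rrm1, Tyms and Pcna, was also smaller than its standard error.

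**Figure D2:**
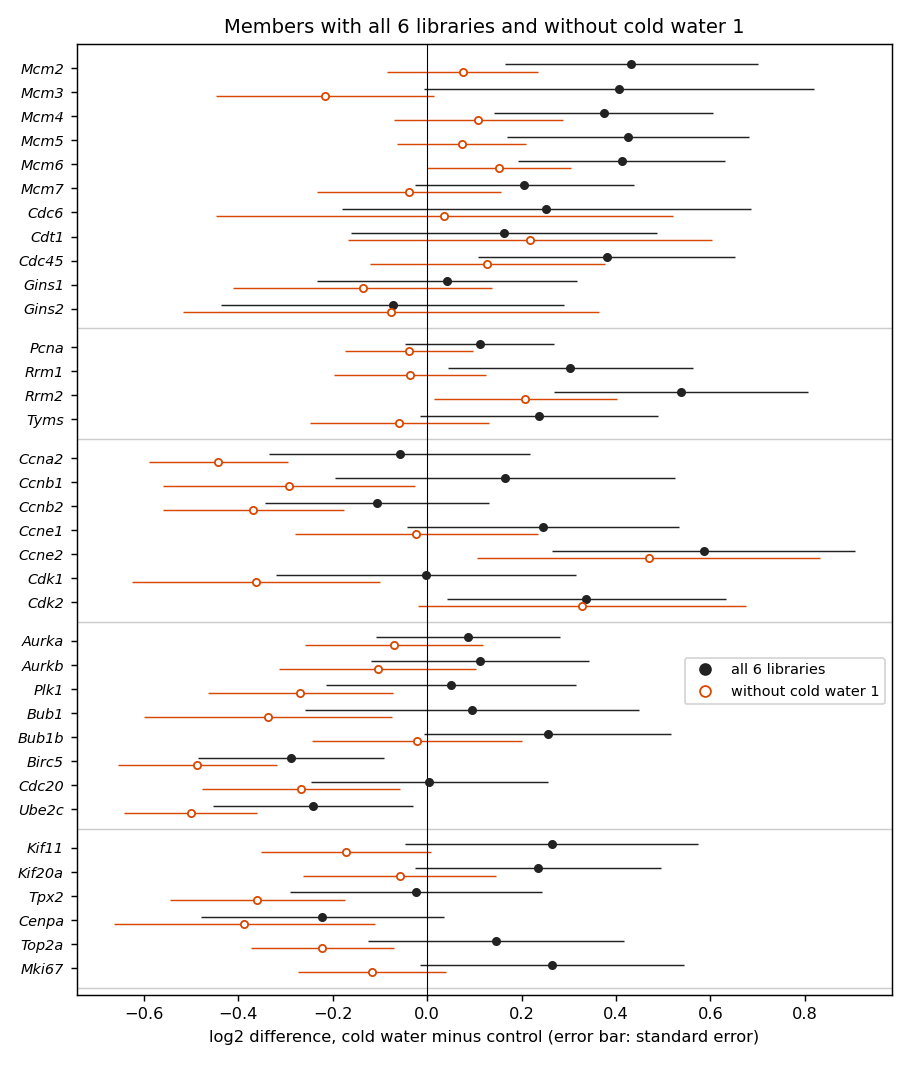
log2 difference (cold water minus control) of each gene with its standard error, from all 6 libraries (filled) and without cold water 1 (open), grouped by role from licensing at the top to spindle and chromosomes at the bottom. Without cold water 1, the 14 genes of the lower 2 role groups all lie below 0, while 7 of the 11 licensing and helicase genes stay above it. The 7 lie above it by less than their standard errors, and some of the 14 lie below it by less than theirs.

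By role group, 7 of 11 licensing and helicase genes were still higher without cold water 1 (median log2 difference 0.07), as was 1 of 4 clamp and nucleotide genes (median -0.04). Each of the 7 licensing and helicase values was smaller than its standard error. So were some of the negative values of the mitotic genes, such as Aurka (-0.07 ± 0.19). Of the cyclin and kinase genes 2 of 7 were higher, with a median of -0.29. These were Ccne2 (0.47 ± 0.36, standard error) and Cdk2 (0.33 ± 0.35), which act at entry into S phase. The other cyclin E gene, Ccne1, acts there too and had -0.02 ± 0.26. Of the mitotic kinases, checkpoint and exit genes 0 of 8 were higher (median -0.27), and of the spindle and chromosome genes 0 of 6 (median -0.20). In CPM, the remaining cold water libraries lay below all controls for 7 genes (19.4%), against 10.9% of all genes. They were Ccna2, Ccnb2, Plk1, Birc5, Ube2c, Tpx2 and Top2a, with no licensing, clamp or nucleotide gene among them. Cold water 2 and 3 lay above all controls for 0 of the 36, against 10.3% of all genes. For Ccna2 the levels were 28.4, 13.7 and 12.1 FPKM in cold water and 18.7, 22.5 and 15.5 FPKM in controls, so that cold water held both the highest library and the lowest pair.

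Mitotic and licensing genes were also set against each other within each library. The summed level of the mitotic kinase, checkpoint and exit genes, divided by that of the licensing and helicase genes, was 1.21, 1.22 and 1.15 in cold water 1, 2 and 3, against 1.53, 1.61 and 1.66 in control 1, 2 and 3. The groups did not overlap, and the means were 1.19 ± 0.04 in cold water and 1.60 ± 0.06 in controls (SD, n = 3 each). Cold water 1, high in both sums at 184 and 152 FPKM, had a ratio like those of cold water 2 (111 and 90.6 FPKM) and cold water 3 (94.5 and 82.4 FPKM). The control sums were 144 and 94.5, 174 and 109, and 115 and 69.6 FPKM. This ratio was singled out after its values were seen, among 10 ratios of role groups of which 6 had no overlap, and it was given no test.

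**Figure D3:**
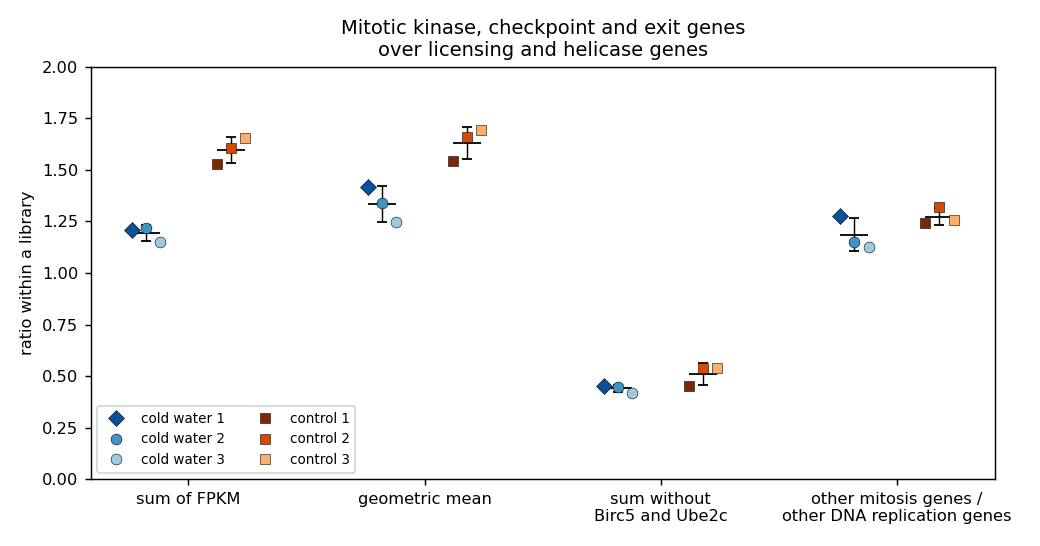
Ratio of mitotic kinase, checkpoint and exit genes to licensing and helicase genes in each library, as sums of FPKM, as geometric means and without Birc5 and Ube2c, and the same ratio for 2 other lists of mitosis and replication genes. Bars are mean ± SD of 3 libraries, with cold water to the left of control. The first 2 versions separate the groups and the last 2 overlap.

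The size of the ratio rested on its most abundant genes. With geometric means, which weight each gene alike, it was 1.42, 1.34 and 1.25 in cold water and 1.54, 1.66 and 1.69 in controls, still without overlap. Without Birc5 and Ube2c it was 0.454, 0.449 and 0.420 in cold water and 0.452, 0.541 and 0.541 in controls, and the groups overlapped. For the 49 other mitosis genes over the 42 other replication genes it was 1.28, 1.15 and 1.13 in cold water and 1.24, 1.32 and 1.26 in controls, with overlap by cold water 1.

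Other genes of the same pathways were read from the same edgeR fit, where the counts at an unadjusted p under 0.05 were 1 of 42 replication, 0 of 49 mitosis and 1 of 34 G1 control genes, against 5.01% of all genes. Of 45 other replication genes, such as polymerases, clamp loaders and origin recognition subunits, 42 were tested and 0 called, 34 were higher in cold water, and the median log2 difference was 0.23. Cold water 1 was the highest library for 33 of them, and without it 23 of 42 were higher, with a median of 0.04. In this list cold water lay above control without overlap for 6 of 42 genes in CPM, against 5.29% of all genes, and below it for 0, against 5.22%. Among them were the polymerase alpha gene Pola1, the chromatin assembly gene Chaf1b and the polymerase epsilon gene Pole, the 3 of smallest unadjusted p, with log2 differences of 0.71, 0.59 and 0.58, and of 0.38, 0.33 and 0.25 without cold water 1. Pola1 had 2.97, 1.46 and 1.53 FPKM in cold water and 1.13, 1.5 and 0.941 FPKM in controls, so that in FPKM the groups overlapped by cold water 2.

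Of 50 other mitosis genes, 49 were tested and 0 called, 33 were higher in cold water, and the median log2 difference was 0.07. Cold water 1 was the highest library for 43 of them. Without it 6 of 49 were higher, with a median of -0.26, and 24 (49.0%) lay below all controls, against 10.9% of all genes. The same count was 7 of the 42 other replication genes (16.7%) and 7 of the 34 G1 control genes (20.6%), and the difference between the lists was not tested. The 3 of smallest unadjusted p with all libraries, the transcription factor gene Mybl2 (log2 difference 0.50), the condensin subunit gene Ncapg2 (0.66) and the midbody gene Cep55 (0.67), were higher in cold water, with 0.23, 0.28 and 0.44 without cold water 1. Of 35 genes of G1 control, 34 were tested and 0 called, 19 were higher, and the median log2 difference was 0.03, or -0.10 without cold water 1. The list is wider than its name, as it also holds the inhibitory kinase gene Wee1, which holds Cdk1, the kinase of mitosis, inactive. Wee1 had 6.48, 6.16 and 6.15 FPKM in cold water and 3.26, 4.62 and 4.33 FPKM in controls. All 3 cold water libraries lay above all controls and close to each other. In CPM, 4 of the 34 genes of this list were higher without overlap, against 5.29% of all genes, and 2 lower, against 5.22%. The log2 difference of Wee1, 0.63 ± 0.19 (standard error), had an edgeR adjusted p of 0.878 and was 0.68 without cold water 1. The E2F partner gene Tfdp1 had a log2 difference of 0.42 and the MuvB subunit gene Lin54 0.49, or 0.22 and 0.43 without that library.

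Markers of other cells moved with cold water 1. Summed over 15 B cell markers, the level was 216, 11.7 and 16.5 FPKM in cold water and 12.7, 13.2 and 10.4 FPKM in controls, and 12 of the 12 tested were highest in cold water 1. Ms4a1, which encodes the B cell surface protein CD20, had 10.6 FPKM there, against at most 0.206 FPKM in the other 5 libraries. Summed over 8 markers of germinal centre B cells, it was 16, 4.58 and 4.98 FPKM in cold water and 4.77, 4.57 and 4.28 FPKM in controls. Gcsam, a signalling gene of germinal centre B cells, had 1.61 FPKM in cold water 1, 0.0712 FPKM in cold water 3 and 0.0757 FPKM in control 1, and was listed at 0 in the other 3 libraries. These genes were picked after their values were seen. The tested B cell markers stood in cold water 1 at 3.79 to 410 times the median of the other 5 libraries, with a median of 47.7. The 2 germinal centre markers abundant enough to test, Bcl6 and Rgs13, stood at 1.47 and 1.82 times. They do not stand for the whole list, in which 6 of 8 markers averaged under 1 FPKM. The geometric mean of all 8 was 1.79, 0.0429 and 0.157 FPKM in cold water and 0.115, 0.0384 and 0.0248 FPKM in controls. Values listed at 0 lower this mean strongly, so its size is uncertain.

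Crypt stem cell and Paneth cell markers had their highest sums in the same library, while enterocyte markers had 33197 FPKM there, less than in 4 of the other 5 libraries. Of the crypt stem cell markers tested, 7 of 13 were highest in cold water 1. All 14 crypt stem cell markers summed to 385, 210 and 196 FPKM in cold water and 207, 299 and 162 FPKM in controls, and 7 Paneth cell markers to 11301, 6381 and 6910 FPKM in cold water and 8548, 7370 and 5714 FPKM in controls. T cell markers summed to 237, 73.7 and 129 FPKM in cold water and 116, 66.2 and 92.9 FPKM in controls, and plasma cell markers to 4579, 1686 and 1895 FPKM in cold water and 1846, 1235 and 1462 FPKM in controls. Smooth muscle markers varied widely within both groups, at 879, 1413 and 354 FPKM in cold water and 722, 1733 and 179 FPKM in controls. Markers of the far ileum summed to at most 0.751 FPKM. The part of any of these in the levels of the cell cycle and replication genes was not tested.

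**Figure D4:**
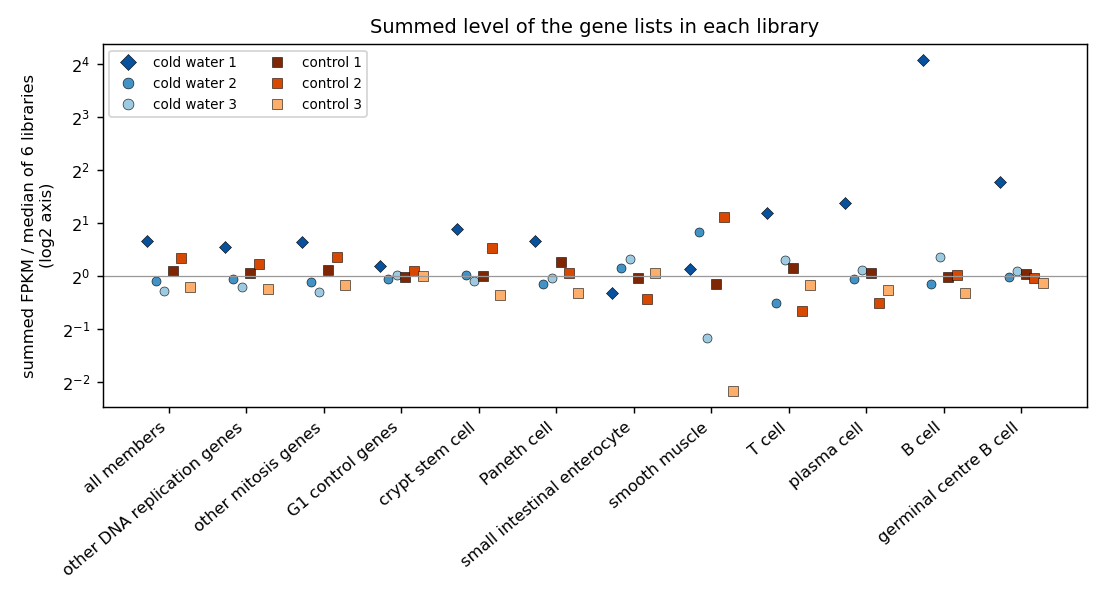
Summed FPKM of each gene list in every library, divided by the median of the 6 libraries (log2 axis). Cold water 1 is the highest library for the 36 genes and for the crypt stem, Paneth, T cell, plasma cell, B cell and germinal centre lists, most of all for B cells at 216 FPKM, and it is not the highest for enterocyte and smooth muscle markers.

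The 36 genes have 185 transcripts in the table, of which 54 reached the level tested. By edgeR's quasi-likelihood test 0 were called, against 0.0285% of 21041 transcripts, and 2 had an unadjusted p under 0.05, against 4.73% of all transcripts. In CPM, 3 were higher and 1 lower in cold water without overlap, against 5.67 and 5.39% of all transcripts. Of the 35 genes with more than 1 isoform, 22 had the same leading isoform in all 6 libraries and 13 did not, against 39.5% of all such genes. DESeq2 called 2 of the 54, against 2.78% of all transcripts, and both belonged to Aurka. Of the other transcripts without overlap, the isoform ENSMUST00000006760 of Cdt1 had 5.07, 7.05 and 3.85 FPKM in cold water and 3.62, 3.62 and 1.99 FPKM in controls (edgeR adjusted p = 0.960).

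Aurka (ENSMUSG00000027496, chromosome 2, 172356190 to 172370535, minus strand) encodes Aurora kinase A, which matures centrosomes and builds the spindle poles. Its level as a gene was 11.2, 7.57 and 6.80 FPKM in cold water and 7.35, 10.1 and 7.34 FPKM in controls, and the groups overlapped. In controls nearly all of it was assigned to ENSMUST00000109140, with 4.17, 0.271 and 1.9 FPKM in cold water and 7.19, 9.87 and 7.15 FPKM in controls. ENSMUST00000109139 had 3.40, 6.24 and 2.33 FPKM in cold water and ENSMUST00000028997 had 3.43, 0.985 and 2.51 FPKM in cold water, and both were listed at 0 in all 3 controls. In GENCODE M21 these last isoforms have the same sequence of 1905 bases and differ in the annotated start codon, so their reads cannot be told apart and the split between them is uncertain. Their sum is given as a value and was not tested.

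**Figure D5:**
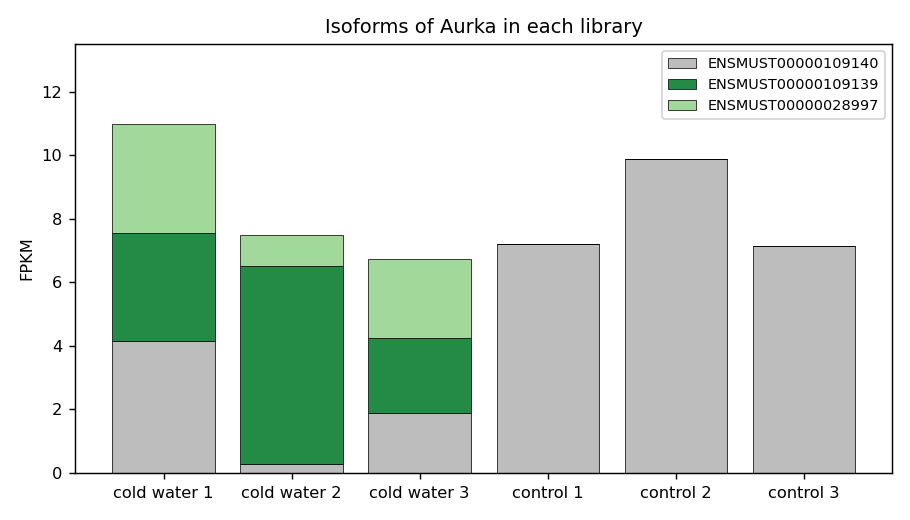
FPKM of the Aurka isoforms in each library, stacked, with cold water to the left of control. The isoforms ENSMUST00000109139 and ENSMUST00000028997 sum to 4.84 to 7.23 FPKM in cold water and are listed at 0 in controls, while ENSMUST00000109140 holds 7.15 to 9.87 FPKM in controls.

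Their sum was 6.83, 7.23 and 4.84 FPKM in cold water, about 298, 296 and 196 fragments, against 0 fragments in each control. With a floor of 3 fragments per library set for the controls, the mean of the cold water libraries was 87.7 times that floor. The factor depends on the floor, and it is neither a measured difference between the groups nor a lower bound on it. The fragments are estimates that divide reads shared with ENSMUST00000109140, and how many of them tell the isoforms apart was not tested. One difference from ENSMUST00000109140 lies in the first exon. It spans 172370395 to 172370506 (112 bases) in the identical pair and 172370473 to 172370535 (63 bases) in ENSMUST00000109140 on the same strand, and each isoform has 9 exons. DESeq2 called ENSMUST00000109139 (adjusted p = 3.62e-16) and ENSMUST00000028997 (adjusted p = 5.84e-13), and edgeR gave an adjusted p of 0.249 for ENSMUST00000109139 and 0.355 for ENSMUST00000028997. Each of these p-values rests on the uncertain split. Both isoforms were listed at 0 in the controls and so reached the level tested through the cold water libraries alone. They were also chosen after their values were seen. A count of 0 in all controls with a value above 0 in all cold water libraries was found in 29 of 21041 transcripts (0.138%), and the converse in 15 (0.0713%). The isoform levels are the authors' estimates, which divide reads shared by the isoforms, and reads over the first exons were not used here.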

How the data were processed

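RNA of 6 libraries, 3 per group, was analysed from a table of 142604 transcripts. Per the labels, RNA (integrity over 7) was freed of ribosomal RNA and read from both ends. The submitters' processing notes name HISAT2 2.0.4 with StringTie 1.3.4d, cutadapt 1.9, FastQC 0.10.1, DESeq2 and edgeR. Their roles, the build and the strand are not given there. The authors deposited FPKM values and estimated counts per transcript. The estimated counts deposited by the authors matched the FPKM scaled by length within a tolerance of 0.02 for at least 99.98% of values, so they are coverage estimates, and low values stepped by about 3.76 counts per fragment. Deposited spans of all 36 genes equal GENCODE M21 (GRCm38).

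Counts were summed by gene symbol and rounded. Features averaging 1 FPKM or more were fitted with group as the sole term by edgeR 4.0.16 in R 4.3.3 (TMM, quasi-likelihood test, Benjamini-Hochberg at 0.05), with DESeq2 1.42.0 and limma 3.58.1 on log2(FPKM + 1) as alternatives. Other alternatives changed the scaling, the filter or the pseudocount, added the replicate number as a block, or left out each library. Levels are FPKM and differences are log2 cold water minus control. Genes given in full were the 3 of smallest unadjusted p in each role group with Mki67, Pcna, Mcm2, Ccnb1 and Cdk1, and in each pathway list the 3 of smallest unadjusted p. Others given in full, such as Ccna2, the markers Ms4a1 and Gcsam, Cdt1, the Aurka isoforms and the ratios, were chosen after their values were seen. The 36 genes and all lists were chosen with earlier results of these data known. The tests were tried on simulated data, but the share of differences recovered is not given here. Some marker genes are not reported here.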

Additional observations from a re-analysis of the deposited data

How the results depend on the processing

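None of the 36 genes was called under any of the 16 alternatives, and their median log2 difference lay between 0.09 and 0.28, except without cold water 1. With 1 library left out, 10 to 33 genes were higher in cold water (10 without cold water 1) and the median ran from -0.07 to 0.28. Over all genes the number called was 5 in the main analysis, 71 with DESeq2, 3 with counts divided by the worth of a fragment, 3 with limma at either pseudocount (1 or 0.1), 2 with a filter at 0.1 FPKM, 3 with no filter, and 0 to 1 with 1 library left out (324 to 788 at an unadjusted edgeR p under 0.05). Of the transcripts of the 36 genes, DESeq2 called 2 and every other alternative 0. Higher and lower calls were 2 and 3 with edgeR, 37 and 34 with DESeq2, and 3 and 0 with limma. The causes were not tested.

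With the replicate number as a block 0 genes were called by edgeR (799 at an unadjusted p under 0.05). Deviations of same-numbered libraries correlated at -0.0024, 0.24 and 0.45 across genes, and those of libraries with different numbers at -0.42 to 0.20. Across genes the values for numbers 2 and 3 thus lay above all different-numbered pairs, and that for number 1 among them. Across transcripts the same-numbered values were -0.0324, 0.0325 and 0.0973. There the value for number 2 lay below that of cold water 1 with control 2 (0.0701). Whether the numbers pair the samples is not stated and was not tested. The ratio of mitotic to licensing genes as geometric means, without Birc5 and Ube2c and over other lists, and the counts without overlap after leaving out cold water 1, were added after seeing the data. At this depth, genes near 1 FPKM rest on few fragments, down to about 51 in a library for Cdc6.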
